A study of Mus musculus with 6 samples.

Results

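A group of genes that act against retroviruses and mobile elements, or belong to the same enzyme family, was followed in mouse leukaemia cells with and without the phosphatase gene Dusp6. The genes were Apobec1, Apobec2, Apobec3, Samhd1, Bst2, Trim30a and Mov10, 7 of the 19938 genes measured, and each had a probe set. They were proposed with earlier results of the same comparison known. The probe set of each gene was chosen by its mean signal, as the brightest over the 6 arrays among probe sets annotated to a single gene symbol. The levels and differences of these 7 genes are therefore given as a description, not as independent evidence.

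Both genotypes were B cell precursors carrying the same oncogene, BCR-ABL1, which is a fusion tyrosine kinase that drives a form of acute lymphoblastic leukaemia. They came from Dusp6 wild-type mice (Dusp6 WT, 3 arrays) and Dusp6 knockout mice (Dusp6 KO, 3 arrays), all labelled with the mixed strain C57Bl/6-SV129j. Total RNA was hybridised to Affymetrix arrays, and signals are on a log2 scale. The sources used here give no age, number of animals, time in culture or deleted part of Dusp6, and do not say whether arrays of a genotype were separate cultures. The spread behind each p-value below is therefore that of these arrays and may be technical.

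Host restriction factors are proteins of the cell that block steps in the life of retroviruses and retrotransposons. APOBEC enzymes are cytidine deaminases: Apobec3 is taken into virus particles and hinders or mutates the viral DNA, Apobec1 edits the apolipoprotein B messenger RNA, and Apobec2 is a relative best known from striated muscle. Samhd1 hydrolyses the deoxynucleotides that reverse transcription needs. Bst2, or tetherin, holds budding particles at the cell surface, Trim30a is a tripartite-motif protein known as a brake on Toll-like receptor signalling to NF-kB, and Mov10 is an RNA helicase that limits retroelements. Many of these genes are induced by interferon, and inbred mouse strains carry different alleles of Apobec3, which is the Rfv3 locus of resistance to Friend virus.

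The letters upstream of the transcript starts are shown because several of these genes are known interferon targets. The interferon-stimulated response element was searched as GAAANNGAAA on both strands, its reverse complement being TTTCNNTTTC, in the 250 bases before each start in the RefSeq promoter table of GRCm38.p6. The table matched all 7 genes with 10 windows, as Apobec3, Trim30a and Mov10 had 2 starts each. In 3 of the 10 windows a match was present, for Apobec3, Bst2 and Trim30a among the 7 genes. The share over all 32536 distinct windows of that length was 2.98%. A match describes letters and is not evidence of a bound factor. In the following windows the match is in capitals and the rest in lower case, 5′ to 3′.

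Apobec3, chr15:79892158-79892407, plus strand: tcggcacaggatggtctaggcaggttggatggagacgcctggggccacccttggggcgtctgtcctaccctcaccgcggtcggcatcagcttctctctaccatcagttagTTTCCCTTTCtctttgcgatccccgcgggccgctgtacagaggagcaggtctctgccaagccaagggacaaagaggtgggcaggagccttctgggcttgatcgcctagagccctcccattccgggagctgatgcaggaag

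Bst2, chr8:71537473-71537722, minus strand: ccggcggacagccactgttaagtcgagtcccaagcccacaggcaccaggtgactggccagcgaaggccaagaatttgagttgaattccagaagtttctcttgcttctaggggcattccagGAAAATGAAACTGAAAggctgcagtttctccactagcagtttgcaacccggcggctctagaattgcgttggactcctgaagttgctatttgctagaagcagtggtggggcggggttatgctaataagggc

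Trim30a, chr7:104465194-104465443, minus strand: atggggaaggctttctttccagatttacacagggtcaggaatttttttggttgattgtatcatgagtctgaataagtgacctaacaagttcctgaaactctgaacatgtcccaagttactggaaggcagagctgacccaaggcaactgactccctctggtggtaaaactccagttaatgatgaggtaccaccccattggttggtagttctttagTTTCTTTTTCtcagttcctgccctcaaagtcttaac

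The Apobec3 match ended 130 bases before the first of its starts in the table, and the window of its other start held none. Bst2 held a pair of overlapping matches that share 4 letters, ending 120 and 114 bases before the start. The Trim30a match lay nearest to its start, ending 26 bases before it, and its other window held none. The shorter gamma-activated sequence TTCNNNGAA was found before Samhd1 and Bst2, and in 7.04% of all windows. Apobec1, Apobec2 and Mov10 had neither motif in these windows.

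Apobec3 was much higher in the knockout cells, and the other 6 genes differed little. Of the 7 genes, 2 passed the threshold as higher (Apobec3 and Samhd1) and 0 as lower (2 at an unadjusted p under 0.05, Apobec1 and Mov10), and 5 did not pass it. The threshold was an adjusted p under 0.05 in limma over all genes, which called 9.66% of genes higher and 10.2% lower. The values of the 3 wild-type and 3 knockout arrays did not overlap for 4 of the 7 genes (Apobec1, Apobec3, Samhd1 and Trim30a), as for 35.7% of all genes. The median difference of the 7 genes, knockout minus wild type, was −0.053, and that of all genes was 0.0018. The targeted gene, Dusp6, had a 10.3-fold lower signal in knockout than in wild type, in the direction of the labels.

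**Figure D1:**
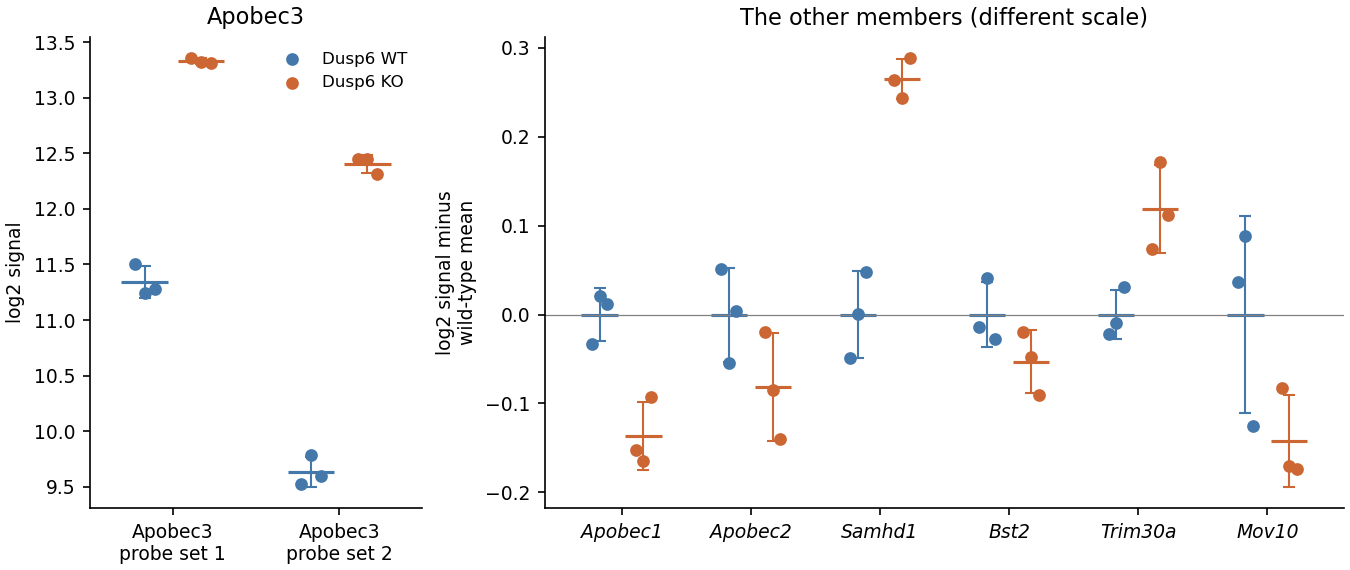
Log2 signal of the 7 genes on each array, with the mean (bar) and SD (whisker) of 3 arrays per genotype (blue, Dusp6 WT; orange, Dusp6 KO). Left, both probe sets of Apobec3 on the signal scale; right, the other 6 genes as signal minus their wild-type mean, on a finer scale. The knockout arrays lie far above the wild-type arrays for Apobec3 and above them for Samhd1 and Trim30a, and below them for Apobec1.

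Apobec3 had a log2 signal of 11.50, 11.24 and 11.28 on the wild-type arrays and of 13.35, 13.32 and 13.31 on the knockout arrays. All 3 knockout arrays were thus far above all 3 wild-type arrays, and they lay closer together (SD 0.023, n = 3) than the wild-type arrays (SD 0.142, n = 3), of which replicate 1 was the highest. The means were 11.34 and 13.33, a difference of 1.99 ± 0.067 (SE), or 3.97-fold. An absolute difference at least this large was found for 53 genes (0.266% of those measured), Apobec3 included, and 30 genes had a larger increase.

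A further probe set of Apobec3, which the choice of the brightest had set aside, gave the same direction. Its log2 signals were 9.52, 9.78 and 9.60 in wild type and 12.45, 12.45 and 12.31 in knockout, again without overlap. The difference was 2.77 ± 0.071 (SE), or 6.80-fold, in a fit of every probe set with a single symbol. The probe sets thus changed by unequal amounts. The first minus the second was 1.71 ± 0.264 (SD, n = 3) on wild-type arrays and 0.93 ± 0.064 (SD, n = 3) on knockout arrays, and the highest knockout array (0.999) was below the lowest wild-type array (1.46). The platform annotation lists 19 sequence records for the first probe set, 4 of them from RefSeq, and 2 for the second, neither from RefSeq, with 1 record in common. The position of the probes in the transcript is not known here, so which exons or isoforms these values reflect was not tested. Whether sequence variants between the strains lie under the probes and alter the signal was not tested either.

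Samhd1, the deoxynucleotide hydrolase, was the other gene past the threshold, with a small difference. Its log2 signals were 10.64, 10.69 and 10.74 in wild type and 10.95, 10.93 and 10.98 in knockout. Every knockout array was above every wild-type array. The difference was 0.27 ± 0.043 (SE), or 1.20-fold.

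Trim30a read 12.33, 12.34 and 12.38 in wild type and 12.42, 12.52 and 12.46 in knockout. The groups did not overlap, but the gap between them was narrow, and the difference of 0.12 ± 0.044 (SE; 95% interval 0.020 to 0.218) did not pass the threshold. Trim30a has close paralogues beside it on the chromosome, and whether their transcripts reach its probes was not tested.

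Bst2, the tetherin gene, had overlapping values in the genotypes. Its log2 signals were 9.40, 9.45 and 9.38 in wild type and 9.39, 9.36 and 9.32 in knockout. The difference was −0.053 ± 0.043 (SE). Its 95% interval was −0.150 to 0.044, and it did not pass the threshold.

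Apobec1, the editor of the apolipoprotein B message, was slightly lower in all 3 knockout arrays. Its log2 signals were 10.57, 10.62 and 10.61 in wild type and 10.45, 10.43 and 10.51 in knockout. The difference of −0.14 ± 0.043 (SE; 95% interval −0.233 to −0.041) lay just short of the threshold and passed it under 4 of 7 other settings of the analysis and in 0 of 6 runs that left out 1 array.

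Apobec2 and Mov10 had overlapping groups. Apobec2 read 7.82, 7.71 and 7.77 in wild type and 7.75, 7.68 and 7.63 in knockout, with a difference of −0.082 ± 0.049 (SE; 95% interval −0.192 to 0.029). These signals were below the median of every array (8.38 to 8.42) and were not tested against background. The RNA helicase gene Mov10 read 11.50, 11.55 and 11.34 in wild type and 11.38, 11.30 and 11.29 in knockout. Its wild-type replicate 3 lay inside the knockout range, and its difference was −0.14 ± 0.060 (SE; 95% interval −0.278 to −0.0061), which did not pass the threshold. Without that array it was −0.20 and passed it (limma adjusted p = 0.033).

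**Figure D2:**
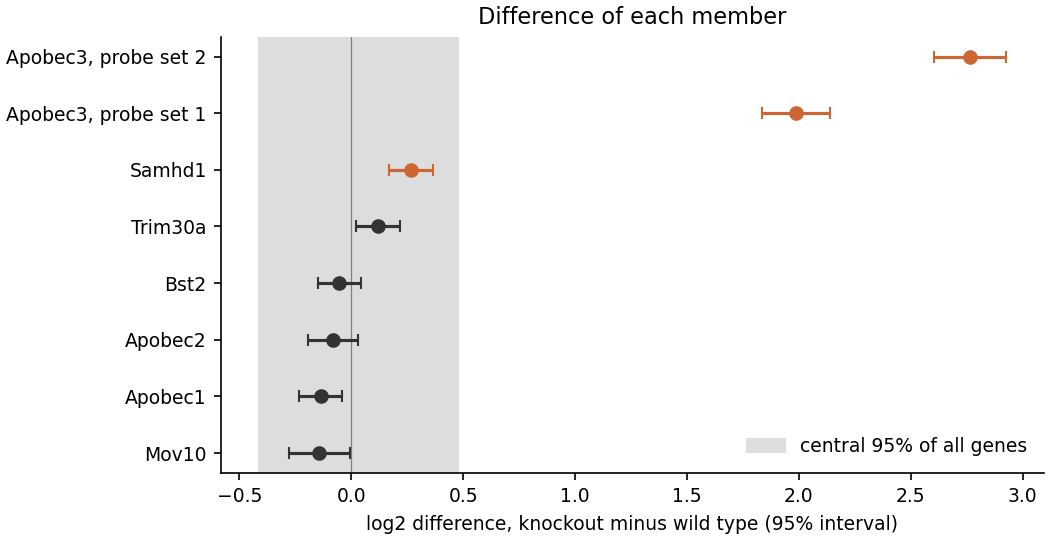
Log2 difference (knockout minus wild type) of each gene with its 95% interval from limma; the grey band holds the central 95% of the differences of all 19938 genes, −0.41 to 0.48. Both probe sets of Apobec3 lie far to the right of the band, and the other 6 genes lie inside it; orange marks those past the threshold.

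The 5 genes whose profile over the 6 arrays was nearest to that of Apobec3 were Eng, Gimap4, Pagr1a, S100a11 and Tmem119. Nearness was the root mean square difference in log2 signal after each gene was centred on its own mean. It was 0.088 for Eng, the TGF-beta co-receptor endoglin, and 0.107 for Gimap4, a GTPase of lymphocytes. It was 0.114 for Pagr1a, 0.115 for the calcium-binding protein gene S100a11 and 0.116 for the membrane protein gene Tmem119. These genes differed by 1.82 (Gimap4) to 2.15 (Tmem119) between the genotypes. With 2 groups of 3 arrays, nearness mainly ranks genes by the size of their difference.

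The strain label covers a mix of genomes, and the labels do not say which alleles each genotype carried at any locus. Values of the nearest genes on the chromosome are given for that reason, and the part of strain in any difference was not tested. Around the 7 genes, the 3 nearest measured protein-coding genes on each side in the GRCm38.p6 gene table gave 42 genes. Of these, 5 were higher and 6 lower past the threshold and 31 did not pass it, where 9.66% and 10.2% of all genes passed.

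Next to Apobec3, the Polycomb gene Cbx7 rose by 1.39 ± 0.070 (SE; limma adjusted p = 7.9e-07), from 9.10 ± 0.111 to 10.49 ± 0.109 (SD, n = 3 each). Cbx7 lies on the opposite strand, and its annotated span overlaps that of Apobec3 in the gene table. Whether probes of either gene fall in the shared stretch is not known here, and its part in either value was not tested. The other neighbours lay farther off, from 77646 bases (Pdgfb) to 173115 bases (Syngr1) from Apobec3. The nearest measured gene on the other side, the dynein light chain gene Dnal4, fell by 0.19 (adjusted p = 0.013), and Sun2 (0.031), Gtpbp1 (0.021) and the growth factor gene Pdgfb (0.040) did not pass the threshold. Syngr1, the third gene beyond Apobec3 on the Cbx7 side, rose by 0.18 (adjusted p = 0.030), a call that was lost without any 1 of the wild-type arrays or knockout replicate 1 (limma adjusted p 0.051 to 0.11 where lost). The call of Dnal4 was lost without wild-type replicate 1 (adjusted p = 0.059).

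Near the other genes the differences were smaller than 0.5. Beside Samhd1, 3 of 6 neighbours fell, opposite in sign to Samhd1: the kinetochore gene Dsn1 by 0.30, Mroh8 by 0.21 and the retinoblastoma-like gene Rbl1 by 0.16. The calls of Mroh8 and Rbl1 were each lost in 4 of 6 runs without 1 array (limma adjusted p 0.051 to 0.11), both among them without wild-type replicate 3 or knockout replicate 3. Beside Trim30a, its family members Trim12c and Trim34a rose by 0.26 and 0.18, and Trim30d fell by 0.16. Of the 6 neighbours of Apobec1, the Polycomb gene Phc1 fell by 0.48. Of those of Mov10, the GTPase gene Rhoc rose by 0.17, a call that was kept without wild-type replicate 3 and lost without any other single array, and with a further quantile normalization or arrays centred on their median (limma adjusted p 0.059 to 0.13 where lost). Of the neighbours of Bst2 and of Apobec2, 0 of 6 each passed in limma, with 1 each at an unadjusted p under 0.05.

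**Figure D3:**
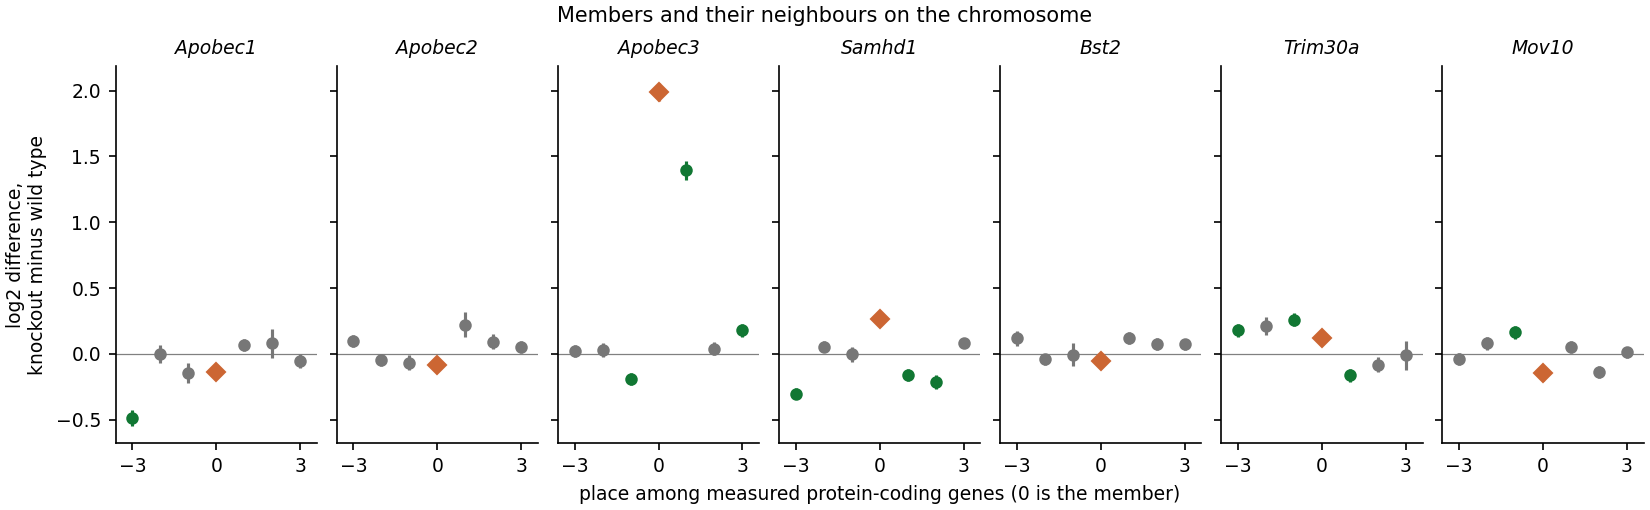
Log2 difference (knockout minus wild type, with SE) of each gene (orange diamond, at place 0) and of the 3 nearest measured protein-coding genes on each side, in the order of the gene table. Green points passed the threshold and grey points did not; Cbx7, at place 1 beside Apobec3, is the only neighbour beyond 0.5 in either direction.

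A short list of 6 genes known to carry different alleles in the parental strains of such a mix had 5 that were measured. The list does not cover every such gene. Of the 5, 0 were called in limma and 0 had an unadjusted p under 0.05. The differences were −0.048 ± 0.041 (SE) for Nnt, the transhydrogenase gene with a deletion in the C57BL/6J substrain, 0.030 ± 0.049 for the interferon-inducible gene Ifi202b, 0.039 ± 0.052 for the inflammatory caspase gene Casp4, −0.013 ± 0.051 for Disc1 and 0.044 ± 0.046 for Nlrp1b (limma adjusted p 0.50 to 0.90). Ifi202b was dim, at 4.83 in wild type, where the lower quartiles of the arrays were 7.12 to 7.16. Alleles can differ without a change in signal, so these few values do not show which alleles either genotype carried. They say nothing about the alleles of Apobec3 itself.

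Related pathways were counted from lists of genes, 152 measured genes in 11 lists, of which 39 (25.7%) were higher and 22 (14.5%) lower past the threshold, where 9.66% and 10.2% of all genes passed. The lists were chosen with earlier results of these data known, so these shares are a description. Among deaminase relatives, editing partners and uracil repair genes, 4 of 10 fell and 0 rose in limma (0 also at an unadjusted p under 0.05), with a median difference of −0.11. The RNA adenosine deaminase gene Adarb1 fell by 0.70 ± 0.051 (SE; adjusted p = 1e-05). The uracil glycosylase gene Ung, which removes the product of cytidine deamination from DNA, fell by 0.52 (adjusted p = 4.9e-05), and the mismatch glycosylase gene Mbd4 by 0.38 (adjusted p = 0.00023). Apobec4 fell by 0.20 (adjusted p = 0.0091) and was dim, at 6.07 in wild type. A1cf, the cofactor of Apobec1, differed by −0.15 and Rbm47, another editing cofactor, by 0.064, and neither passed.

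Tripartite-motif genes gave 3 of 12 higher and 1 lower, with Trim11 at 0.24 beside those named above. The calls of Trim11, Trim30d and Trim34a were each lost in 4 or 5 of 6 runs without 1 array. Without wild-type replicate 1 or knockout replicate 2, 1 gene of the list was higher. Without any array other than knockout replicate 2, Trim30d was not called and 0 were lower in limma; with trend and robust variance 2 were lower. Factors of entry, capsid and assembly went both ways, with 5 of 15 higher and 5 lower and a median of −0.066. Fv1, the capsid restriction gene of murine leukaemia virus, fell by 1.10 ± 0.073 (SE; adjusted p = 5.2e-06), and Ifitm3, which hinders virus entry, by 0.93 ± 0.063 (adjusted p = 6.1e-06). Fv1 was not on the strain-allele list above, which does not cover every gene with such alleles. The count for that list therefore says nothing about Fv1, and the part of strain in its fall was not tested. Serinc3, whose protein lowers the infectivity of retroviral particles, rose by 0.74 (adjusted p = 3e-06) and the secreted glycoprotein gene Lgals3bp by 0.89 (adjusted p = 1.3e-06).

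RNA-level antiviral effectors gave 7 of 18 higher and 2 lower, with a median of 0.10. The Schlafen gene Slfn5 rose by 1.13 ± 0.050 (SE, limma adjusted p = 3.4e-07) and the exonuclease gene Isg20 by 1.06. The nucleic acid sensor gene Zbp1 rose by 0.63 and Ifit3, which was dim (6.98 in wild type), by 0.61. The 2 called lower were Slfn8 (−0.33) and Ifit2 (−0.28). In nucleic acid sensing, 7 of 18 were higher and 2 lower, with a median of 0.051; without wild-type replicate 1 or 2 or knockout replicate 3, 1 was lower. The DNA sensor gene Tlr9 rose by 1.44 ± 0.071 (SE; adjusted p = 7.1e-07), the RNA helicase gene Dhx58 by 0.76, the adaptor gene Sting1 by 0.53 and the inflammasome sensor gene Aim2 by 0.51. Cgas (−0.24) and Rnaseh2a (−0.22) were the genes called lower. The nuclease gene Trex1 differed by 0.029 and did not pass.

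Interferon receptor and signalling genes gave 8 of 18 higher and 1 lower, with a median of 0.11. Stat2 and Irf9, which act in the factor that binds the interferon motif, rose by 0.54 ± 0.049 (SE; adjusted p = 4.7e-05) and 0.47 ± 0.045 (adjusted p = 5.9e-05). The feedback protease gene Usp18 rose by 0.42 and the transcription factor gene Irf7 by 0.31. In wild type these were at 8.13 and 7.76, below the array medians (8.38 to 8.42). Jak2 (−0.30) was the gene called lower.

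Among genes of deoxynucleotide metabolism, the pathway Samhd1 acts on, 2 of 17 were higher and 3 lower, with a median of −0.034. The mitochondrial nucleotide kinase gene Cmpk2 rose by 0.99 ± 0.074 (SE; adjusted p = 1.1e-05) and the deaminase gene Dctd by 0.30. Thymidylate synthase, Tyms, fell by 0.33 and thymidine kinase, Tk1, by 0.26. The ribonucleotide reductase genes Rrm1 (−0.078) and Rrm2 (0.0008) did not pass.

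Relatives of Mov10 and genes of RNA silencing and decay gave 3 of 17 higher and 1 lower, all smaller than 0.25. They were Ago4 at 0.22, the decay helicase gene Ddx6 at 0.17, Tnrc6b at 0.16 and the slicer gene Ago2 at −0.21. Each of these calls was lost in 1 to 5 of 6 runs without 1 array. In limma, 0 of the list were higher without wild-type replicate 3, knockout replicate 2 or knockout replicate 3, and 1 without wild-type replicate 1. Ago2 was not called without wild-type replicate 2. Genes that silence retroelements in chromatin gave 4 of 17 higher and 3 lower. The DNA methyltransferase gene Dnmt3a rose by 0.54 ± 0.044 (SE; adjusted p = 2.1e-05) and Dnmt3b fell by 0.33, while Morc2a and Morc3 rose by 0.38 and 0.35. Of 5 entry receptors for gammaretroviruses, 0 passed in limma and 1 had an unadjusted p under 0.05. Those with the smallest p were Slc20a2 (−0.091) and Slc7a1 (−0.097).

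**Figure D4:**
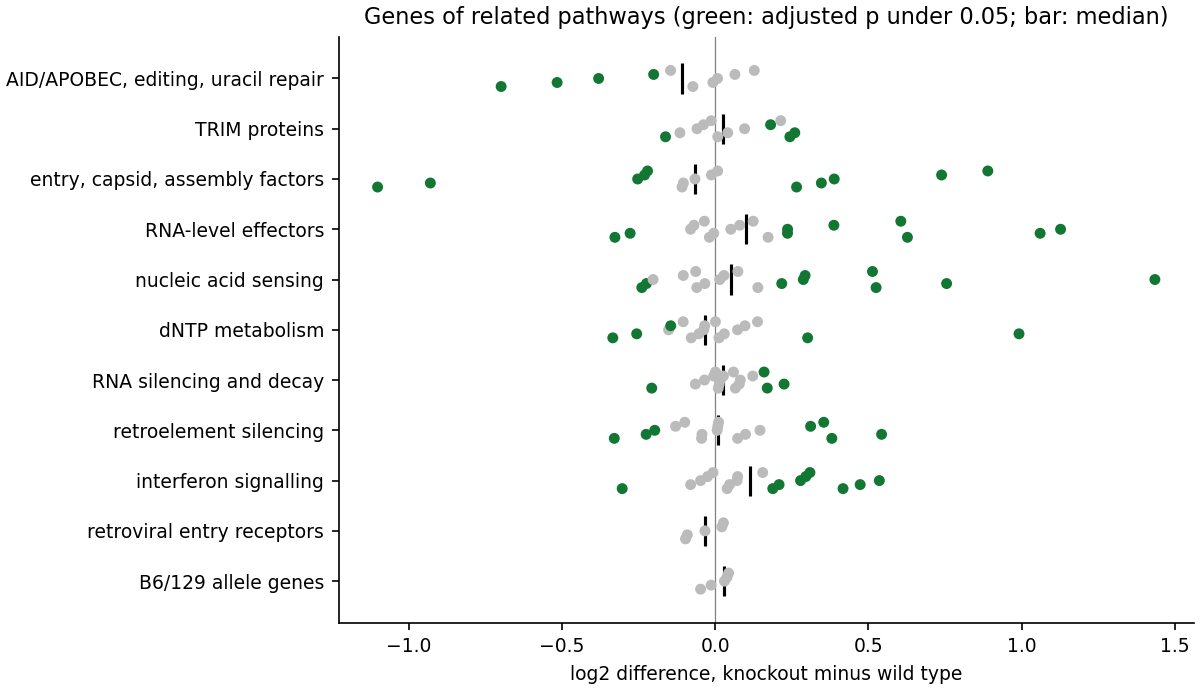
Log2 difference (knockout minus wild type) of each measured gene in 11 lists of related pathways, 1 point per gene, green where the adjusted p was under 0.05, with the list median as a bar. Green points lie on both sides of 0 in most lists; those for RNA-level effectors, nucleic acid sensing and interferon signalling are mostly to the right, and the green points of the first list are all to the left.

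Markers of the labelled cell type were bright, with a mean log2 signal over 9 B cell precursor genes of 12.93 to 12.99 in wild type and 12.73 to 12.75 in knockout. Of these, Rag1 rose by 0.20 and Dntt (−1.42), Vpreb1 (−0.27) and Blnk (−0.23) fell. Markers of other cells that can express these restriction factors had mean signals below the array medians, though single genes of the lists were above them. The mean over 11 macrophage, monocyte and neutrophil genes was 7.57 to 7.65 in wild type and 7.65 to 7.66 in knockout. Among them 1 of 11 was higher, Lyz2, by 0.70 (9.03 in wild type and 9.73 in knockout). Cd68 was also above the array medians (9.48 and 9.29), and Csf1r was at 7.53 in both groups. The mean over 9 dendritic cell genes was 7.66 to 7.71 and 7.73 to 7.83, with 1 of 9 higher, Flt3, by 0.62 (8.79 and 9.41). Over 9 T and NK cell genes the mean was 7.20 to 7.28 and 7.27 to 7.33, with 1 higher (Cd8b1, 0.23). Of 3 erythroid and megakaryocyte and 6 stromal genes, 0 passed in limma and 0 had an unadjusted p under 0.05. The part of other cells in the differences above was not tested, and in bulk RNA fewer cells of a type and less RNA per cell cannot be told apart.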

How the data were processed

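Total RNA of 6 samples (3 Dusp6 WT, 3 Dusp6 KO) was measured on 1 array each. The deposited values are log2 signals, 1 per probe set and array, for 35556 probe sets. The submitters' processing notes name RMA and Partek 6.5, with no settings; the range of the values (3.23 to 14.8) fits a log2 scale. Array medians were 8.38 to 8.42, and no further normalization was applied. The platform annotation gave 1 symbol for 21789 probe sets, several for 1621 and none here for 12146. The first were reduced to the brightest per gene over the 6 arrays, which left 19938 genes. Of the 21789, the gene identifiers of 21698 were found in the RefSeq gene table of GRCm38.p6, which gave names and gene order only, as no build is given in the sources used here for the arrays.

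All genes were fitted in limma 3.58.1 under R 4.3.3 with genotype alone in the model, with Benjamini-Hochberg adjustment over all genes and a call at an adjusted p under 0.05. Differences are knockout minus wild type. The script was tested on simulated data. The precision is limited by the number of arrays (median SE of a difference 0.051). Over all probe sets, correlations were 0.996 to 0.998 between arrays of the same genotype and 0.987 to 0.989 across genotypes.

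The 7 genes, the lists and the tests were chosen with earlier results of these data known. From each list the text names the called genes of largest difference, at most 4. Where none was called it names the 2 of smallest p, and from the strain-allele list all that were measured. Of the neighbours it names those that passed or lie beside Apobec3. A1cf, Rbm47, Trex1, Rrm1, Rrm2 and the cell markers were chosen after their values were seen. So were the lower genes Slfn8, Ifit2, Cgas, Rnaseh2a and Jak2.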

Additional observations from a re-analysis of the deposited data

How the results depend on the processing

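The analysis was repeated with a further quantile normalization, with arrays centred on their median, without dim genes (below the 25th percentile or the median of mean signal), with the mean of a gene's probe sets, with trend and robust variance, with a replicate block and without each array in turn. Apobec3 differed by 1.94 to 2.38 and Samhd1 by 0.24 to 0.29 over these settings, both past the threshold in each, and the other probe set of Apobec3, an alternative chosen after seeing the data, gave 2.77. No difference of the 7 genes changed sign; Apobec2 was too dim for the filter at the median. Of the 7 genes, 1 was called lower, against 0 in the fit reported, with arrays centred on their median (Apobec1 −0.15), without genes below the 25th percentile, without those below the median, and with trend and robust variance (Apobec1 −0.14 in all 3). Without 1 array this count was 0 to 1, and Mov10 ran from −0.20 to −0.098. Trim30a (0.12) passed without genes below the median and with trend and robust variance. Genes called higher numbered 1491 to 2189 and lower 1512 to 2411. Of 49 other called genes named above, 37 kept their call in each setting that measured them. These 49 leave out the cell markers and Slfn8, Ifit2, Cgas, Rnaseh2a and Jak2.

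The replicate numbers are shared by the genotypes, but arrays with the same number did not deviate together (correlations 0.0098, −0.117 and 0.053), so they do not pair the samples, and not every array correlated best with its own number. The replicate block gave 1681 genes higher and 1764 lower and no other call among the 7 genes. Of the other called genes counted above, it ended the calls of Ago4, Rbl1, Rhoc, Syngr1, Tnrc6b and Trim30d (limma adjusted p 0.051 to 0.074). That left 1 higher, in place of 3, among RNA silencing and decay genes. Among tripartite-motif genes 0 were lower, in place of 1.

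Without 1 array, differences near 0 changed sign for Casp4 (−0.0024 to 0.062), Disc1 (−0.040 to 0.031), Gtpbp1 (−0.0074 to 0.046), Ifi202b (−0.013 to 0.064), Pdgfb (−0.0009 to 0.078) and Sun2 (−0.0049 to 0.062). Without genes below the median, 3 in place of 5 entry, capsid and assembly factors were lower, and 4 in place of 7 RNA-level effectors higher. In deoxynucleotide metabolism 1 in place of 2 were higher and 5 in place of 3 lower. Among interferon receptor and signalling genes 6 in place of 8 were higher. That filter removes dim genes before the fit and the adjustment, among them Ifitm3, Slfn5, Ifit3 and Cmpk2. It does not change the difference of a gene that is kept.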
